A study of Mus musculus with 3 samples.

Results

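The genes of cholesterol and fatty acid synthesis were followed in messenger RNA sequencing libraries of 4T1 cells made to over-express WISP2. They were chosen by symbol: 45 symbols were listed, and 44 of the 34591 rows of the count table carried one of them. The remaining symbol, Msmo1, is the current name of the row Sc4mol, so all listed genes were measured. They comprise 5 regulators, 18 genes of sterol synthesis, 1 of sterol efflux, 12 of fatty acid synthesis, 4 acyl-CoA ligases and 4 genes of fatty acid uptake, binding and oxidation.

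4T1 is an established mouse mammary carcinoma line, grown here in serum-containing medium. A single group was measured, with the genotype WISP2 OE, and it held 3 libraries. The labels' protocol describes viral transduction and puromycin selection for Wisp1 constructs; for WISP2, the sources used here do not give the construct, its promoter or whether the line is a pool or a clone. Empty-vector controls were not analysed here, so no value below is a change caused by WISP2. The names C1, C2 and C3 used here come from the table's columns and carry no order. No source says that they came from separate cultures, so their spread may be technical.

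C1 was the shallowest library with 17630755 counts, C3 held 47577315 and C2, the deepest, 67028365. Levels are given as CPM, the count scaled to the total of its library. Wisp2 averaged 422 ± 35.4 CPM (SD, n = 3). All 5 listed epithelial markers reached 1 CPM in every library, and none of the 5 adipocyte or the 4 endothelial markers did. In the edgeR test of spread described below, 9 of 13026 genes varied more between libraries than genes of like level. Of these 9, 8 deviated most in C3, and the matching share of all genes is not given here. The 9 were picked by that same spread, and their number depended on the setting. It was 0 with a robust prior and 14 with library totals without TMM.

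Cells make cholesterol from acetyl-CoA through mevalonate, isoprenoids, squalene and lanosterol, and they make fatty acids from the same precursor through malonyl-CoA. Both routes are switched on by the SREBP transcription factors, which sit in the endoplasmic reticulum bound to the escort protein Scap. When membrane sterol is high, the Insig proteins hold Scap there; when it is low, Scap carries SREBP to the Golgi, where proteases free the active factor. SREBP-2, from Srebf2, acts mainly on sterol genes and SREBP-1c, from Srebf1, mainly on fatty acid genes, and Insig1 is itself a target. SREBP binds sterol regulatory elements next to binding sites for NF-Y, a factor that recognises the CCAAT box.

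Promoters of sterol genes are shown beside those of fatty acid genes. Whether their motifs have a part in the differences between libraries described below was not tested. RefSeq promoters on GRCm38.p6 were available for 36 of the 44 genes, and the 250 bases before the start were searched on both strands, counting a gene when any of its promoters held the motif. The promoters shown are from genes with a single RefSeq start and no annotated exon base in the window. They are given 5′ to 3′ on the gene's strand, and capitals mark matches to TCACNCCAC, a form of the sterol regulatory element, and to CCAAT or its reverse complement. Hmgcs1 (chr13:119690101-119690350, plus strand), Mvd (chr8:122443423-122443672, minus strand) and Sc5d (chr9:42264301-42264550, minus strand) belong to the sterol arm, and Fasn (chr11:120824548-120824797, minus strand) and Acly (chr11:100528001-100528250, minus strand) to the fatty acid arm.
Hmgcs1: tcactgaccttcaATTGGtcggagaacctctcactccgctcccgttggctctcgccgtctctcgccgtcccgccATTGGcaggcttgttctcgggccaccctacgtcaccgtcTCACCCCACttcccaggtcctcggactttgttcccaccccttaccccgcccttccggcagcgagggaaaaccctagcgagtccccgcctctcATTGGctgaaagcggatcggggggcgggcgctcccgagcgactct
Mvd: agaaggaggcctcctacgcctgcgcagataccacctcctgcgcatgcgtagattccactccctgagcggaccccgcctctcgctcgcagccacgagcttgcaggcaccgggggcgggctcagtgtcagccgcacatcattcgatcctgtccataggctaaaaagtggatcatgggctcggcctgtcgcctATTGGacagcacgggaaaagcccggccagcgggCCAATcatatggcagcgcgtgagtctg
Sc5d: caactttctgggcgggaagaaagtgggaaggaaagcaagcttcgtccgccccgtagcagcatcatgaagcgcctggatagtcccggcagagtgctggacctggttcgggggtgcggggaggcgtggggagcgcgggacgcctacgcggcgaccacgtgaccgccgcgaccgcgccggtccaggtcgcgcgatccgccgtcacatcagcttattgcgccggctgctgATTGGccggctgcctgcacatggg
Fasn: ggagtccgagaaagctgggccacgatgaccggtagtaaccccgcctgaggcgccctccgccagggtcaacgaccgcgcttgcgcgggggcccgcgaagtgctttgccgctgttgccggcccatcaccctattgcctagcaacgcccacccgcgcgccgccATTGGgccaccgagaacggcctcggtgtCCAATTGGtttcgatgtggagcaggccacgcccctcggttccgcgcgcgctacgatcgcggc
Acly: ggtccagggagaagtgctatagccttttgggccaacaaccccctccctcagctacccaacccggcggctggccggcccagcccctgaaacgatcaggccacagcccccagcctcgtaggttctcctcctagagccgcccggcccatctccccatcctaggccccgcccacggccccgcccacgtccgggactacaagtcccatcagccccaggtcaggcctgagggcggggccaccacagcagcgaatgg
The Hmgcs1 promoter held 1 match to TCACNCCAC, which began 137 bases before the start, and 3 CCAAT boxes. Mvd held 2 CCAAT boxes and Sc5d 1. Fasn held 3, of which a pair on opposite strands share bases, and Acly held none.

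A CCAAT box was common in front of the sterol genes. It was found in 14 of the 15 sterol genes with a promoter (93.3%), all but Acat2, and in 5 of 9 fatty acid genes (55.6%). The shares were 41.4% of the 8622 genes with a promoter that reached 1 CPM in every library and 37.5% of all 27025 genes with one. GGGCGG, the GC box bound by Sp1, was found in 14 of 15 sterol genes and in 4 of 9 fatty acid genes, against 66.9% of the 8622. CACGTG, a form of the E box, was in 3 of 15 and 1 of 9, against 10.4%. TCACNCCAC was in 1 of 15 sterol genes and 0 of 9 fatty acid genes, against 1.23%; among the other genes followed here it was found in front of the ligase gene Acsl1. These are letter matches and not binding sites, and a window without a match can hold other forms of the element.

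All regulators were well expressed. Levels of different genes are compared as CPM per kilobase (kb) of annotated exon. Srebf2 stood at 29.1 ± 0.437 CPM per kb (SD, n = 3) and Srebf1 at 23.6 ± 1.41. Within each library Srebf2 exceeded Srebf1, by 0.31 ± 0.06 on the log2 scale (1.24-fold). The retention protein gene Insig1 stood at 41.8 ± 4.01 CPM per kb, 2.77-fold above its paralog Insig2 (15.0 ± 0.631), and the escort gene Scap at 15.5 ± 0.994.

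The sterol arm was expressed along its whole length. All 18 genes reached 1 CPM in every library, and their median level was 16.3 CPM per kb, against 8.31 for all detected genes with a length. Acat2, which joins acetyl-CoA units, stood at 44.8 ± 4.23 CPM per kb (SD, n = 3), the farnesyl diphosphate synthase gene Fdps at 40.03 ± 3.66, the HMG-CoA synthase gene Hmgcs1 at 37.0 ± 4.81 and Sqle, the squalene epoxidase, at 33.4 ± 1.80. Cyp51, which demethylates lanosterol, was next at 33.4 ± 3.99. This order depends on the length used: per kb of coding sequence Fdps (159 ± 14.6) and Sc4mol (158 ± 14.6) were highest and Acat2 (95.7 ± 9.04) was lower than both. Sqle exceeded Fdft1, the squalene synthase that acts just before it, by 0.76 ± 0.04 on the log2 scale (1.69-fold).

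Tm7sf2, a sterol reductase, was the lowest of the arm by exon and by coding length. It had 79, 321 and 198 counts in C1, C2 and C3, or 4.48, 4.79 and 4.16 CPM, and 1.02 ± 0.071 CPM per kb. The next lowest were the ketoreductase Hsd17b7 (7.09 ± 0.355 CPM per kb), the lanosterol synthase Lss (7.44 ± 0.646) and the final reductase Dhcr7 (7.77 ± 0.579), which differ from one another by about their spread. By coding length the means of Lss (36.5 ± 3.17 CPM per kb), Hsd17b7 (33.3 ± 1.67) and Dhcr7 (31.8 ± 2.37) exceeded those of 2 other genes. These were the mevalonate kinase Mvk (28.2 ± 3.30) and the decarboxylase Mvd (19.6 ± 1.34). In C1, however, Mvk lay above Hsd17b7 and Dhcr7. Acat2 has a close paralog, Acat3 (12.5 CPM), so its counts are uncertain where reads match both. Of the exon bases of Fdps, 26.7% are shared with another annotated gene on the same strand, as are 12.1% of those of Tm7sf2; 18.3% of those of Fdft1, 13.2% of those of Scap and 12.1% of those of Hmgcs1 lie opposite another gene, and the strand setting of the counting is not given in the sources used here.

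**Figure D1:**
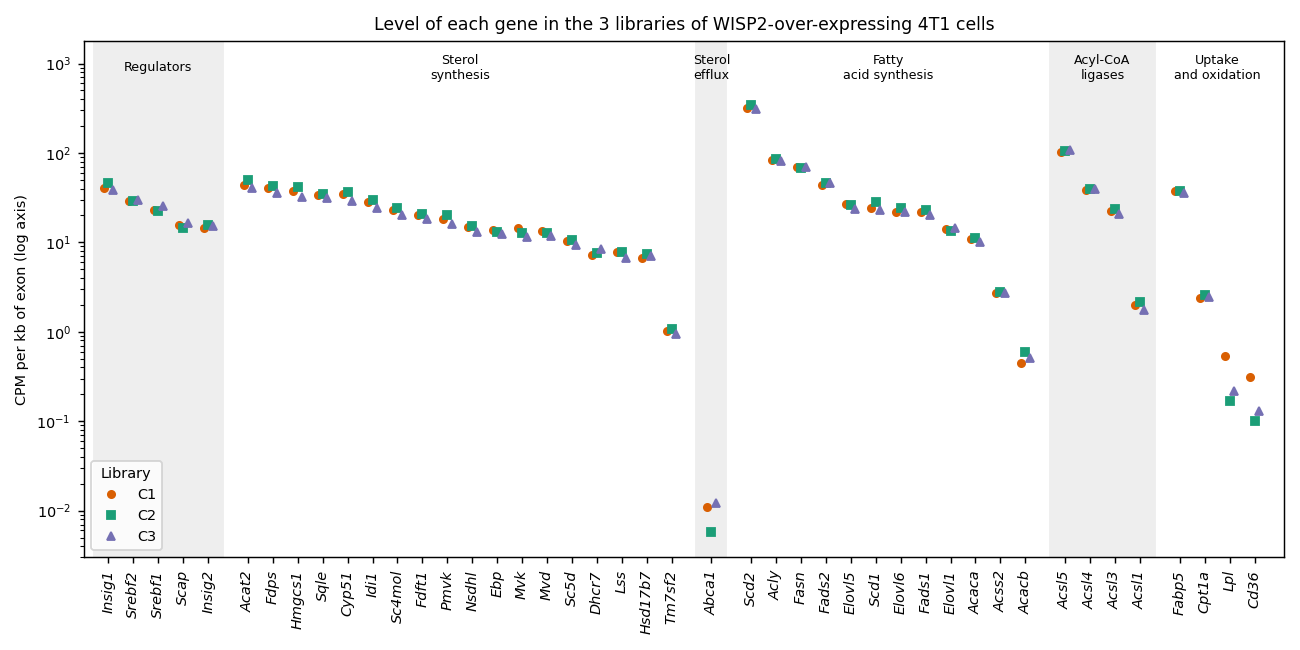
Level of each gene in CPM per kb of exon on a log axis, one point per library (C1, C2, C3), grouped by role and ordered by mean within each role. Scd2 stands highest at 309 to 348 CPM per kb, and Abca1, at 2, 4 and 6 counts, lowest.

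The fatty acid arm was dominated by a single gene. Scd2, a stearoyl-CoA desaturase that makes monounsaturated fatty acids, had 1732, 1903 and 1686 CPM in C1, C2 and C3. At 325 ± 20.96 CPM per kb (SD, n = 3) it ranked 151st among the 11545 detected genes with a length, and it gave 50.3% ± 0.994 of the summed level of the 12 fatty acid genes. Its paralog Scd1 stood at 25.1 ± 2.69 CPM per kb, which is 0.0771 times Scd2 (log2 ratio -3.70 ± 0.06). Of the 4 desaturases of this family, Scd2 made up 92.3% ± 0.325, Scd1 7.12% ± 0.283, Scd3 0.5005% ± 0.0531 and Scd4 0.116% ± 0.00882. These paralogs are similar in sequence, and how the counting treated reads that match several of them is not given in the sources used here.

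Acly, which cleaves citrate to cytosolic acetyl-CoA, and Fasn, the fatty acid synthase, followed at 82.9 ± 1.82 and 69.2 ± 1.15 CPM per kb. By coding length Scd2 was still highest, but Elovl6 (182 ± 11.0) came before Acly (133 ± 2.91), and Scd1 (115 ± 12.4) and Fads2 (112 ± 3.77) before Fasn (101 ± 1.68). Fasn had 770.4, 745 and 759 CPM in C1, C2 and C3. Acss2, which makes acetyl-CoA from acetate instead, stood at 2.75 ± 0.0514 CPM per kb; Acly exceeded it 30.1-fold, or 10.1-fold when the longest coding sequence was used as the length. Of the acetyl-CoA carboxylases, Acaca, the cytosolic form that serves synthesis, exceeded Acacb, the mitochondrial form that restrains oxidation, 20.8-fold per exon length (log2 ratio 4.38 ± 0.17) and 38.4-fold per coding length.

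Of the elongases Elovl5, which acts on polyunsaturated chains, stood at 25.6 ± 1.54 CPM per kb, Elovl6, which extends palmitate, at 22.6 ± 1.37 and Elovl1, which makes very long saturated chains, at 14.0 ± 0.407. Elovl5 exceeded Elovl6 by 0.18 ± 0.10 on the log2 scale, but this ratio was -0.69 without division by length and -0.86 with coding length, so the order of the pair was not settled. Elovl1 was at 0.618 times Elovl6, or 0.251 times by coding length. Fads2, the delta-6 desaturase of polyunsaturated fatty acids, stood at 45.1 ± 1.52 CPM per kb. Fads1, the delta-5 desaturase, stood at 0.480 times that level (21.7 ± 1.53), or 0.697 times by coding length and 0.701 times without length.

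Acsl5 made up most of the acyl-CoA ligases, which activate fatty acids for further use. It stood at 106 ± 1.89 CPM per kb and took 62.3% ± 0.738 of the summed level of 5 ligase genes, against 23.3% ± 0.232 for Acsl4, which prefers arachidonate, 13.1% ± 0.833 for Acsl3 and 1.16% ± 0.113 for Acsl1. Acsl4 exceeded Acsl3 by 0.83 ± 0.11 on the log2 scale (1.78-fold). The fatty acid binding protein gene Fabp5 stood at 36.9 ± 1.10 CPM per kb; it has processed pseudogenes, so its level is uncertain. Cpt1a, which takes acyl chains into mitochondria for oxidation, stood at 2.49 ± 0.101 CPM per kb, and Fasn exceeded it 27.8-fold (12.3-fold by coding length).

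Abca1 was close to the limit of detection. This gene, which encodes a cholesterol exporter and is a target of the oxysterol receptor LXR, had 2, 4 and 6 counts in C1, C2 and C3, or 0.113 CPM (95% interval 0.0137 to 0.4098), 0.0597 (0.0163 to 0.153) and 0.126 (0.0463 to 0.274). Intervals are exact binomial (Clopper-Pearson) and cover counting error only. The intervals overlap, so no difference between libraries was detectable at this depth. Summed over libraries Hmgcs1 had 22757 counts against 12 for Abca1, a ratio of 1896 (95% counting interval 1085 to 3671), and after length correction within libraries the ratio averaged 3493-fold by exon length, 6733-fold by coding length and 1548-fold with no length.

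As sums per exon length, the sterol arm lay below the fatty acid arm, and the order of these sums rested on Scd2. The 18 sterol genes summed to 363 ± 30.6 CPM per kb and the 12 fatty acid genes to 645 ± 28.9 (SD, n = 3). The log2 ratio of sterol to fatty acid was -0.78, -0.80 and -0.91 in C1, C2 and C3. Without Scd2 the fatty acid sum was 320.2 ± 8.09 CPM per kb and the ratio turned to 0.21, 0.24 and 0.08. The sum without Scd2 was taken per exon length only, and the arms hold unlike numbers of genes. By the median gene, the fatty acid arm with Scd2 was higher, at 23.9 CPM per kb against 16.3 for the sterol arm. Between a gene of each arm, Hmgcs1 was at 0.531 times Fasn by exon length (log2 ratio -0.91 ± 0.20) and at 1.07 times by coding length, so their order was not settled either. With 3 libraries an exact two-sided sign-flip test cannot go below p = 0.25, and no test of these ratios was made.

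Between libraries, sterol genes were lowest in C3 almost throughout. Hmgcs1 had 174, 190.0 and 146 CPM in C1, C2 and C3. Cyp51 had 152, 163 and 128 CPM. Idi1, the isopentenyl diphosphate isomerase, had 98.5, 104 and 85.0 CPM. In all of these C2 was highest and C3 lowest, with the highest library 1.30-, 1.27- and 1.23-fold above the lowest. Fdps (172, 182 and 152 CPM), Acat2 (113, 125 and 104) and Sc4mol, a sterol methyl oxidase (142, 149 and 124), followed the same order. Of the 18 genes 16 (88.9%) were lowest in C3, against 37.3% of the 11700 genes that reached 1 CPM throughout, and 14 (77.8%) were highest in C2, against 35.7%. The genes not lowest in C3 were late enzymes. Dhcr7 was highest in C3 (42.4, 44.3 and 48.9 CPM), and both it and Hsd17b7 (34.3, 37.9 and 36.4 CPM) were lowest in C1. Besides Dhcr7, the genes not highest in C2 were early and late ones, all highest in C1. They were Mvk (38.9, 33.7 and 30.9 CPM), Mvd (25.1, 23.9 and 21.9) and Ebp (31.8, 30.4 and 29.0). The epithelial markers went mostly the other way: 4 of 5 were highest in C3, against 34% of all detected genes, with a median deviation of 0.11 there. Cdh1 was the exception, with the order of the sterol genes (437, 463 and 431 CPM in C1, C2 and C3). Epcam had the widest range of the 5, 1.24-fold (82.0, 89.3 and 101 CPM), and Krt7 differed by 1.07-fold. The part of the C3 shift of these markers in the sterol values was not tested.

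Fatty acid genes shared this order in part. Of the 12 genes 8 (66.7%) were lowest in C3, against 37.3% of all detected genes, and 9 (75.0%) were highest in C2, against 35.7%. Those lowest in C3 included Scd1 (120, 137 and 111 CPM in C1, C2 and C3) and Fads1 (105, 111 and 96.7). Fasn, Acly (436, 448 and 429 CPM) and Acss2 (27.8, 28.6 and 27.6) differed by at most 1.04-fold. The median deviation from the gene's mean, on the log2(CPM + 0.5) scale, was 0.04, 0.08 and -0.14 in C1, C2 and C3 for the sterol arm and -0.01, 0.05 and -0.05 for the fatty acid arm. Over all detected genes it was 0.0015, 0.0027 and -0.0035. The sterol arm thus lay above the fatty acid arm by 0.05 in C1 and 0.04 in C2 and below it in C3, with a difference of -0.09. That contrast rested on C3: between C1 and C2 alone the difference of the arms was -0.00197 in C1 and 0.00197 in C2. Genes of an arm are not replicates, and the difference of the arms was not tested.

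The regulators did not all follow. Insig1 had 126, 143 and 119 CPM in C1, C2 and C3, the order of the sterol genes. Srebf1 had 129, 127 and 142 CPM, Scap 118, 107 and 121, and Srebf2 209, 207 and 213. All of these 3 were highest in C3, against 34% of all detected genes, and lowest in C2, against 33.8%, the reverse of the sterol genes, and Srebf2 differed by only 1.03-fold. Insig2 differed by 1.09-fold and was lowest in C1. Among the ligases Acsl3 (97.4, 103 and 89.96 CPM) and Acsl1 (20.9, 22.7 and 18.5) were lowest in C3, whereas Acsl4 and Acsl5 were lowest in C1, at 1.04-fold each. Of the 42 detected genes of the set 7 were highest in C1 (16.7%, against 30.3% of all) and 8 were lowest there (19.0%, against 28.9%).

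**Figure D2:**
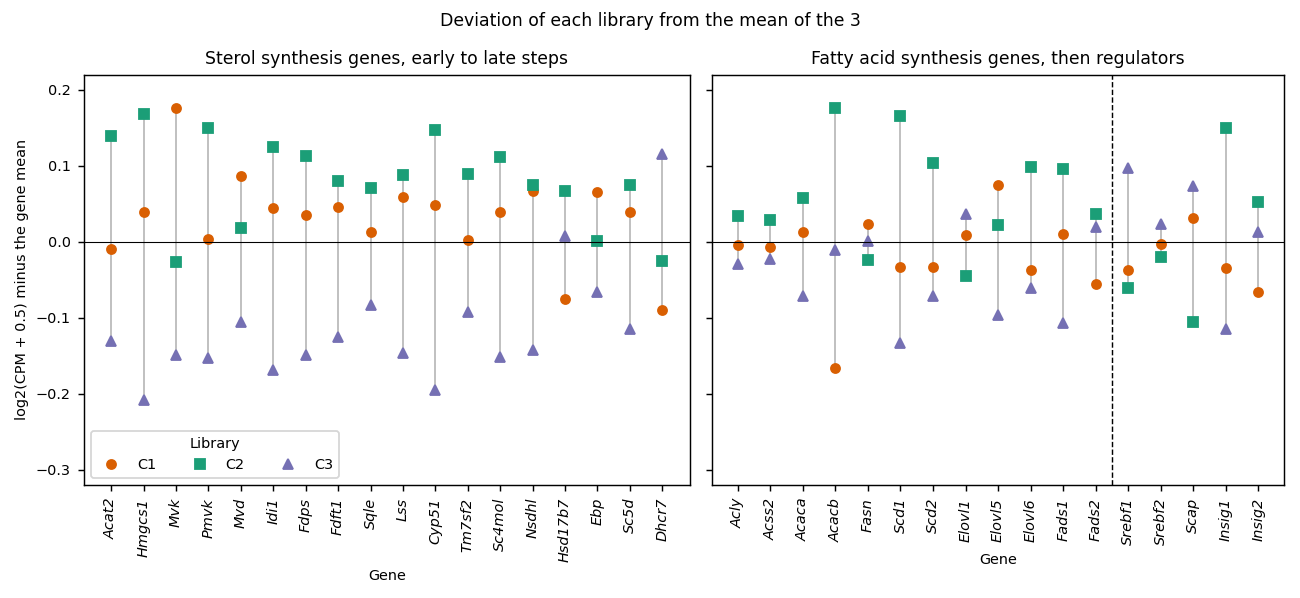
Difference between a library and the mean of the gene, on the log2(CPM + 0.5) scale, for the sterol genes from early to late steps (left) and for the fatty acid genes and, after the dashed line, the regulators (right); points are libraries. C3 is lowest for 16 of 18 sterol genes and 8 of 12 fatty acid genes.

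Most of these differences passed a test against counting noise, and none passed the test against the spread of genes of like level. In a Poisson dispersion test over 13026 genes (Benjamini-Hochberg 0.05), 32 of the 43 genes of the set that could be tested passed, against 39.3% of all genes: 14 of 18 sterol genes, 9 of 12 fatty acid genes, 3 of 5 regulators, 3 of 4 ligases and 3 of 4 uptake and oxidation genes. The test gains power with level, and the detected genes of the set had a median of 21.9 CPM per kb. Those that did not pass included Srebf2, Insig2, Hsd17b7, Acsl4 and Acss2. Without C3 13 genes passed, against 12.9% of all genes, and without C2 20, against 13.8%, so the share fell in the set and in the whole table. In edgeR's quasi-likelihood F test of spread against the trend, 0 of the 43 passed at an adjusted 0.05, against 0.0691% of all genes. At an unadjusted 0.05, 10 of 43 (23.3%) passed, against 5.15% of all genes. They were the 6 sterol genes Hmgcs1, Cyp51, Idi1, Fdps, Sc4mol and Acat2, together with Insig1 and Scd1, all lowest in C3, and Lpl and Cd36, which were highest in C1. Adjusted p was 0.44 for Hmgcs1 and 0.567 for Cyp51. With no filter on low counts, 171 of 18797 genes passed at an adjusted 0.05, and Hmgcs1, Cyp51 and Lpl were among them. DESeq2 marked 1 of the 43, Lpl, as having outlying dispersion, and 100 of all 13026 genes.

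**Figure D3:**
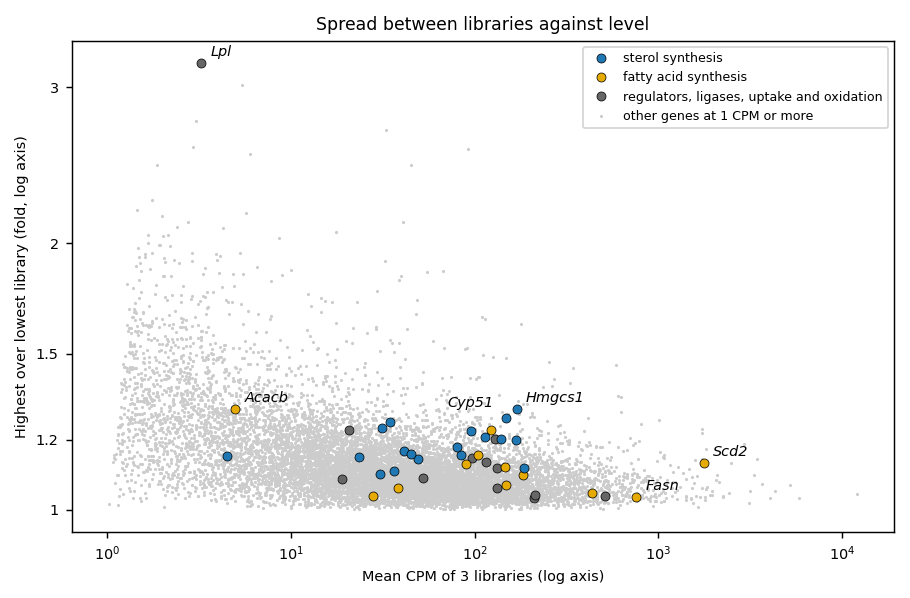
Highest over lowest library (fold) against mean CPM, both on log axes, for the 11700 genes that reached 1 CPM throughout; grey points are genes outside the set and coloured points are genes of the set by role. Lpl lies highest at 3.19-fold, and the sterol genes lie between 1.10- and 1.30-fold.

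Lpl had the widest fold range of the detected genes. It encodes lipoprotein lipase, which frees fatty acids from circulating triglyceride and is made by adipocytes, muscle and macrophages. It had 100, 119 and 110 counts in C1, C2 and C3, or 5.67 CPM (95% interval 4.61 to 6.90), 1.78 (1.47 to 2.12) and 2.31 (1.90 to 2.79). C1 was thus 3.19-fold above C2, the largest ratio among those 11700 genes. Its adjusted p in edgeR's F test was 0.151, and it passed that test without C2. Cd36, a fatty acid and lipoprotein receptor of macrophages, adipocytes and capillary endothelium, had 20, 24 and 22 counts, or 1.13 CPM (0.693 to 1.75), 0.358 (0.229 to 0.533) and 0.462 (0.2898 to 0.7001). It followed the same order, with C1 3.17-fold above C2.

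Most macrophage markers were also highest in C1 as CPM. The 8 markers measured summed to 20.1, 9.83 and 10.2 CPM in C1, C2 and C3, and none had 0 counts in every library. Of the 8, 7 were highest in C1, against 30.3% of all detected genes, though only Lyz2 and Cd68 reached 1 CPM throughout. Lyz2, the macrophage lysozyme, had 166, 209 and 180 counts, or 9.42, 3.12 and 3.78 CPM, a 3.02-fold range. Emr1, which encodes the F4/80 antigen, had 31, 23 and 22 counts, or 1.76, 0.343 and 0.462 CPM. As for Lpl and Cd36, the counts of Lyz2 and Emr1 were of like size although C1 was the shallowest library, and the cause was not tested. Cd68 differed less, with 98, 345 and 203 counts, or 5.56, 5.15 and 4.27 CPM, a 1.30-fold range. Its 95% intervals in C1 (4.51 to 6.77 CPM) and C2 (4.62 to 5.72) overlapped. Tyrobp had only 4, 7 and 7 counts. Ptprc, the general leukocyte marker, was highest in C3 with 1, 8 and 13 counts. The adipocyte markers had at most 3 counts in any library, with Plin1, Cidec and Lep at 0, and the endothelial markers at most 8. Whether the macrophage signal has a part in the Lpl and Cd36 values was not tested. In bulk libraries fewer cells of a type and less RNA per cell cannot be told apart.

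**Figure D4:**
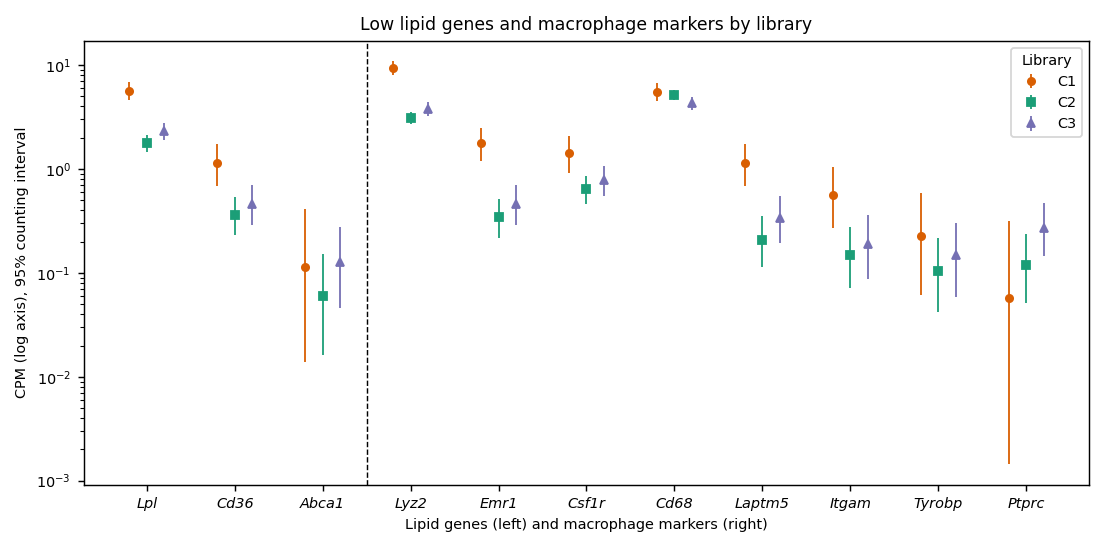
CPM on a log axis of the 3 lowest lipid genes (left of the dashed line) and of 8 macrophage markers (right), with exact 95% counting intervals, for C1, C2 and C3. Lpl, Cd36 and 7 of the 8 markers are highest in C1.

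The machinery around these genes was present as well. All 6 genes of SREBP processing outside the set reached 1 CPM in every library, among them the site-1 protease gene Mbtps1 at 26.6 ± 1.00 CPM per kb and Erlin1 at 22.1 ± 0.929. Of 11 genes of sterol handling 9 did so, led by the lysosomal sterol carrier Npc2 (28.7 ± 2.05 CPM per kb), the oxysterol binding protein Osbp (21.9 ± 0.296) and Stard4 (12.9 ± 0.905). The LXR gene Nr1h2 averaged 31.5 ± 2.99 CPM, whereas its relative Nr1h3 averaged 1.45 ± 0.240. Abcg1, another LXR-driven exporter, had 4, 22 and 18 counts (0.227, 0.328 and 0.378 CPM), and Soat2 had 5, 20 and 3. The LXR-target exporters Abca1 and Abcg1 were therefore both below 1 CPM.

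Among 22 further measured genes of fatty acid synthesis, 17 reached 1 CPM in every library. Hsd17b12 (51.8 ± 0.7996 CPM per kb) and Tecr (45.6 ± 1.42), which act within the elongation cycle, and Me1, the NADPH-forming malic enzyme (25.0 ± 1.98), were highest. Thrsp, Mlxipl, Elovl2 and Elovl3 had 0 counts in all libraries. Their exact 95% intervals reach up to 0.209, 0.0550 and 0.0775 CPM in C1, C2 and C3. A floor of 3 counts equals 0.1702, 0.0448 and 0.0631 CPM there. Mlxipl encodes ChREBP, a glucose-responsive transcription factor of liver, and its dimer partner Mlx averaged 29.0 ± 0.743 CPM. In edgeR's F test 0 of the 6, 10 and 17 genes tested in these 3 lists passed at an adjusted 0.05. Vldlr and Mid1ip1 passed at an unadjusted 0.05, a share near the 5.15% of all genes. Vldlr, a lipoprotein receptor, had 5.39, 8.97 and 5.57 CPM in C1, C2 and C3. Mid1ip1, an activator of acetyl-CoA carboxylase, had 49.9, 53.6 and 43.4 CPM, with C3 lowest. Of the 17 detected synthesis genes outside the set 8 (47.1%) were lowest in C3, against 37.3% of all detected genes, and 7 (41.2%) were highest there, against 34%.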

How the data were processed

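RNA of 3 libraries of 4T1 cells was measured with a strand-preserving poly(A) kit, per the labels' protocols. The deposited table holds raw read counts per gene symbol, not normalized by the authors; CASAVA 1.7, BWA, STAR and HTSeq and the build mm9 are named, per the submitters' processing notes, with no role or order. Columns match no sample title and were assigned to the group as a whole.

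CPM used the library total, and lengths were the union of GENCODE M21 exons (44 of 44 genes; 31490 of 34591 symbols), another build, used for lengths only. Union exons hold retained introns and long untranslated ends, so the longest coding sequence was an alternative. Pair ratios had 0.5 counts added. Spread was tested with edgeR 4.0.16 (R 4.3.3; TMM, filterByExpr, intercept only) by the quasi-likelihood dispersion over its trended prior, and by a Poisson dispersion test with 2 degrees of freedom, both adjusted over 13026 genes and checked on simulated data. DESeq2 1.42.0 gave size factors and dispersion outliers. Named were all regulators, the genes of listed pairs, the 4 most abundant per arm, members under 1 CPM in any library, genes past an F test, and the 3 most abundant of each other list; further genes were named for their values. For 1 gene so chosen, values are not reported here. The members and lists were chosen with earlier results of these data known.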

Additional observations from a re-analysis of the deposited data

How the results depend on the processing

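Under TMM or DESeq2 scaling, another pseudocount, the mean in place of the median or the ligases added, the deviations of both arms moved by less than their SD over libraries; leaving out C3 turned the sterol arm's deviation in C1 to -0.03, also within that SD. At 10 counts in place of 1 CPM, 43 genes were detected, and 16 sterol and 8 fatty acid genes were lowest in C3 under both scalings. The count of the set past the F test, 0 as reported, was 3 with no filter on low counts, where 171 of 18797 genes passed. It was 1 without C2 (25 of 12774 genes passed) and 0 without C1 (52 of 13337) or C3 (3 of 12970). DESeq2 marked 1 gene of the set, and 100 of all 13026 genes. The count past the Poisson test, 32 as reported, was 13 without C3, 20 without C2 and 29 without C1, against 12.9%, 13.8% and 36.8% of all genes, and 22 after thinning to the shallowest library, against 21.4%; the cause was not tested. The log2 ratio of the summed sterol to fatty acid arm, -0.83 as reported, was -1.38 without division by length, -1.03 with coding length, -1.17 with the ligases added and 0.18 without Scd2. Of the pair ratios, Hmgcs1 over Fasn turned to 0.10 with coding length, and Elovl5 over Elovl6 turned to -0.69 without length and -0.86 with coding length; the lengths alone make these shifts, and they also change the order of levels within both arms. Coding lengths, the sum without Scd2, the DESeq2 outliers and the scalings of the counts lowest in C3 were chosen after seeing the data. Coding length from protein length was not run. No paired analysis was possible because there is 1 group. Abca1, Cd36 and Tm7sf2 are limited by their few counts.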

Other observations

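Genes that use fatty acids were largely present. Of 20 such genes outside the set 16 reached 1 CPM in every library. The acyl-CoA dehydrogenase genes Acadl (46.2 ± 4.89 CPM per kb; SD, n = 3) and Acadvl (21.9 ± 1.196) of mitochondrial oxidation and Agpat1 (26.8 ± 1.198), an acyltransferase of phospholipid and triglyceride synthesis, were highest. Acadl had 87.6, 104 and 86.2 CPM in C1, C2 and C3 and the fatty acid transporter Slc27a1 22.6, 25.2 and 29.4; these 2 of the 17 genes tested passed edgeR's F test of spread at an unadjusted 0.05 (11.8%, against 5.15% of all genes), and 0 passed at an adjusted 0.05. Of the carnitine palmitoyltransferase 1 genes, Cpt1a took 93.2% ± 0.648 of the summed level per length, Cpt1c 6.02% ± 0.622 and Cpt1b 0.796% ± 0.139. Fabp3 had 0 counts.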
